A study of Mus musculus with 13 samples.

Results

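The genes described here encode inflammatory and regulatory cytokines and the inducible enzymes that act with them. They are the inflammatory ligands Tnf, Il1a, Il1b, Il6 and Il18, the regulatory ligands Il1rn, Il10 and Tgfb1, and the enzymes Ptgs2 and Nos2. They were taken by gene symbol, and they make up 10 of the 18193 mouse genes with a probe set on the array. All 10 passed the filter on low signal that left 15384 genes to test, and where a gene had several probe sets, it was read from the one with the strongest average signal.

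Gene expression was measured by hybridisation array in mouse cells sorted with a CD31 antibody from tumors grown by the human ovarian cancer cell line SKOV3ip1 in mice. The samples were labelled B20-resistant (n = 4), B20-sensitive (n = 4) and control (n = 5). B20 is an antibody against VEGF, the growth factor that drives blood vessel formation. The study asked what differs between endothelial cells of tumors that grow under the antibody and those of tumors that respond to it. Mice of the first 2 groups carried luciferase-labelled SKOV3ip1 tumors and received repeated B20 injections. A tumor was called sensitive or resistant by its bioluminescence, and tumors were collected at several times, so the groups can also differ in time on treatment. For the control group the labels give only the word control; the study's methods describe a control IgG antibody arm. Age is not given in the sources used here, and the methods name female athymic nude mice without tying a strain to these arrays. Nude mice lack mature T cells but keep macrophages. The labels call the arrays biological replicates but give no animal number, so the p-values below measure the spread between these samples.

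Tumor necrosis factor and interleukin-1 are the first signals of an inflammatory response. They act through NF-kB, which switches on further cytokines, Il6 and the prostaglandin enzyme Ptgs2 among them. The response is held in check by a second set of ligands, including interleukin-10, the interleukin-1 receptor antagonist and TGF-beta. Macrophages are a major source of most of these transcripts, and in tumors the same ligands act on blood vessels, fibroblasts and immune cells.

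The arrays differed in cell type markers across and within groups, and these differences stand beside every result below. The median log2 intensity of 15 macrophage and monocyte genes was between 8.29 and 10.19 on the resistant arrays. On the sensitive arrays it was 3.82, 4.19 and 4.60 for replicates 1 to 3 and 9.84 for replicate 4, and on the control arrays it was between 7.99 and 9.48. Csf1r, the receptor that macrophages need for survival, followed this split, at 7.39, 8.61, 7.69 and 11.86 on the sensitive arrays against 10.40 to 11.47 on the others. The 13 endothelial genes had a median of 7.07 and 7.38 on control replicates 4 and 5 and of 2.68 to 4.15 on the other 11 arrays. Pecam1, which encodes CD31 itself, was at 6.56 on both of those control arrays and at 2.32 to 3.41 on the other 11, close to the lower limit of 2.01 set on all values. The markers that define the labelled cell type were thus low on 11 of the 13 arrays. Mesothelial genes were highest on sensitive replicates 1 and 2 (medians 8.31 and 7.88), and B cell genes on sensitive replicate 3 (7.16). The excess of 3' over 5' control probe signal, a sign of RNA breakdown, was 5.75 log2 units on sensitive replicate 4 against 2.15 to 4.11 on the other arrays. Pairs of arrays within a group correlated at 0.90 to 0.95 in resistant, 0.66 to 0.92 in sensitive and 0.91 to 0.98 in control samples. In such bulk samples, fewer cells of a type and less RNA per cell cannot be told apart.

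No member was called in any of the 3 comparisons by limma with Benjamini-Hochberg adjustment over all 15384 genes. The background was 0% of genes called in resistant against sensitive, 0% in sensitive against control and 0% in resistant against control samples. At an unadjusted p under 0.05, 2 of the 10 members were higher in resistant than in sensitive samples, Il1a and Il10, where 4.54% of all genes were. In sensitive against control samples 3 members were lower at that level, Tnf, Il1a and Il1b, where 6.57% of all genes were. In resistant against control samples no member reached it in either direction by its main probe set, where 2.52% of all genes did. The fit shares 1 estimate of spread over all 3 groups, so the resistant to control errors and intervals below also carry the spread of the sensitive arrays. With the resistant and control arrays alone, 1026 genes reached that level, against 388 in the shared fit, and 0 were called. The members' median log2 difference was 1.22 between resistant and sensitive samples, where the median over all genes was -0.07. It was -1.34 between sensitive and control samples (0.09 over all genes) and -0.07 between resistant and control samples (0.03 over all genes). The first 2 comparisons share the sensitive arrays, so their opposite signs are not separate observations.

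Sensitive replicate 4 decided 6 calls among the members. Each array was left out in turn, and only the fit without this array changed a member's call. That fit is shown for the genes below with these values known. The array lies apart from its group for several members, so leaving it out narrows the sensitive spread (SD of Il1a 2.14 with it, 0.52 without). The adjusted p-values without it are therefore a description and not separate evidence. Without that array, 3 of the 10 members were called higher in resistant than in sensitive samples, Tnf, Il1a and Il10. Of all genes, 2.78% were called in either direction in that comparison, 380 higher and 48 lower. Without it, 3 members were called lower in sensitive than in control samples, Tnf, Il1a and Il1b. Of all genes, 4.52% were called in either direction there, 542 lower and 154 higher. With all arrays, the groups overlapped for every member in every comparison, where 1.87%, 3.02% and 2.70% of all genes did not overlap in resistant against sensitive, sensitive against control and resistant against control samples. Without sensitive replicate 4, 6 members (Tnf, Il1a, Il1b, Il1rn, Il10 and Ptgs2) had every resistant array above every sensitive array, where 6.18% of all genes did. Tnf, Il1a, Il1b and Il1rn then also had every sensitive array below every control array, where 6.88% of all genes did. The part of the macrophage marker split and of the RNA quality of that array in these differences was not tested.

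**Figure D1:**
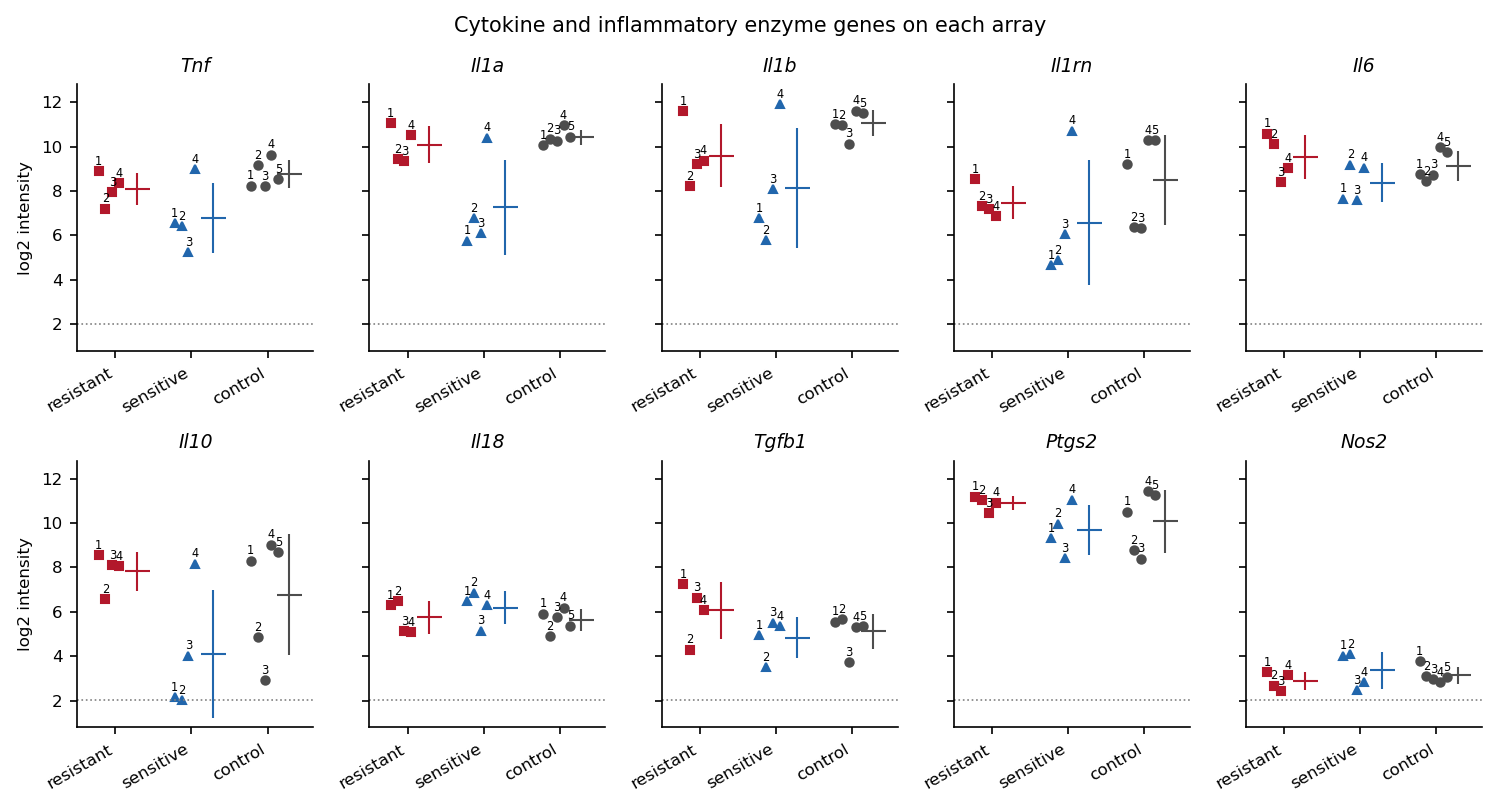
Log2 intensity (vertical axis) of each of the 10 genes on each array, in resistant (red squares), sensitive (blue triangles) and control samples (grey circles); small numbers are replicate numbers, bars are the mean and SD, and the dotted line is the lower limit of 2.01. Sensitive replicate 4 sits far above the other 3 sensitive arrays for Il1a, Il1b, Il1rn and Il10, while Il18 and Nos2 show no such gap.

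Il1a encodes interleukin-1 alpha, an alarm cytokine that is active without cleavage and is released from damaged cells. In replicate order, its log2 intensities were 11.05, 9.45, 9.35 and 10.51 on the resistant arrays, 5.77, 6.78, 6.11 and 10.41 on the sensitive arrays, and 10.07, 10.36, 10.27, 10.98 and 10.45 on the control arrays. Sensitive replicates 1 to 3 lay below every other array, and sensitive replicate 4 lay within both other groups. The mean was 10.09 ± 0.83 in resistant and 7.27 ± 2.14 in sensitive samples (SD, n = 4 each), a log2 difference of 2.82 (SE 0.79, 95% interval 1.14 to 4.51, limma adjusted p = 0.448) or 7.08-fold. Sensitive samples differed from control samples (10.43 ± 0.34, SD, n = 5) by -3.16 (SE 0.75, adjusted p = 0.192). Without sensitive replicate 4 these differences were 3.87 (14.6-fold, adjusted p = 0.000279) and -4.21 (adjusted p = 8.17e-05), the smallest p-values among the members. Resistant and control samples differed by -0.34, with a 95% interval of -1.94 to 1.26.

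Tnf encodes tumor necrosis factor, made as a membrane protein and shed by the protease ADAM17. In the same order, its log2 intensities were 8.89, 7.20, 7.95 and 8.36 on the resistant arrays, 6.56, 6.40, 5.24 and 8.97 on the sensitive arrays, and 8.24, 9.16, 8.22, 9.64 and 8.55 on the control arrays. Again sensitive replicates 1 to 3 were the lowest of all 13 arrays. Resistant samples differed from sensitive samples by 1.31 (SE 0.65, adjusted p = 0.716), and sensitive from control samples by -1.97 (SE 0.61, adjusted p = 0.282), with limma. The first was 0.79 without sensitive replicate 3. Without sensitive replicate 4 the differences were 2.03 (4.10-fold, adjusted p = 0.0402) and -2.70 (adjusted p = 0.00493). The resistant to control difference of -0.66 had an interval of -1.98 to 0.65.

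Il1b encodes interleukin-1 beta, which is made as an inactive precursor and cut by caspase-1 in the inflammasome. Log2 values of Il1b were 11.58, 8.22, 9.20 and 9.36 on the resistant arrays, 6.78, 5.77, 8.09 and 11.92 on the sensitive arrays, and 11.00, 10.98, 10.14, 11.62 and 11.50 on the control arrays. The highest value of all was on sensitive replicate 4, and 3 of the 4 resistant arrays lay below all control arrays. Sensitive samples (8.14 ± 2.69, SD, n = 4) differed from control samples (11.05 ± 0.58, SD, n = 5) by -2.91 (SE 0.99, limma adjusted p = 0.303), and by -4.17 without sensitive replicate 4 (18.0-fold, adjusted p = 0.00321). Resistant and sensitive samples differed by 1.45 (SE 1.04), by 2.71 without that array (adjusted p = 0.0591), by 0.66 without sensitive replicate 2 and by 0.79 without resistant replicate 1. Resistant and control samples differed by -1.46 (interval -3.57 to 0.66), which did not pass the test.

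Tnf, Il1a and Il1b, whose arrays split most alike, are shown with the 120 bases before the annotated transcription start because inflammatory genes often carry a TATA box there. The sequences are RefSeq's for build GRCm38.p6, with 8 of the 10 members matched; capitals mark TATAAA on the gene's strand and, in Il1a, also the AP-1 motif TGACTCA.
Tnf, chr17:35202008-35202127, minus strand: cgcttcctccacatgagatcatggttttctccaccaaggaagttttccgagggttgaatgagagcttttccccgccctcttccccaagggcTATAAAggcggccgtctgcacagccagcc
Il1a, chr2:129309973-129310092, minus strand: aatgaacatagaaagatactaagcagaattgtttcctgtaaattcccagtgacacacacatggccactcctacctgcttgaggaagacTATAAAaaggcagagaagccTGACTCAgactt
Il1b, chr2:129371140-129371259, minus strand: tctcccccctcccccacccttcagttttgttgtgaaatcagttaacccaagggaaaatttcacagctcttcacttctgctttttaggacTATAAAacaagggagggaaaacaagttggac
Counting back from the start, TATAAA ended at -24 in Tnf, -27 in Il1a and -26 in Il1b. Within 250 bases before the start, TATAAA was found in 7.59% of 32851 RefSeq promoters, and among the 8 matched members only in these 3. The AP-1 motif, searched on both strands as TGANTCA, was present in 6.75% of promoters and, among the matched members, upstream of Il1a, Il1rn and Il6. The matches ended at -6 in Il1a, -135 in Il1rn and -243 in Il6. No cyclic AMP response element (TGACGTCA, both strands, 1.55% of promoters) was found in any matched window. These matches describe letters and not bound sites.

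Il6 encodes interleukin-6, a signal from macrophages, fibroblasts and endothelium that acts through STAT3. Il6 read 10.58, 10.13, 8.38 and 9.03 on the resistant arrays, 7.66, 9.19, 7.59 and 9.06 on the sensitive arrays, and 8.74, 8.43, 8.74, 9.97 and 9.75 on the control arrays. The gap between sensitive replicate 4 and the others was absent here, since replicate 2 was higher. Resistant and sensitive samples differed by 1.16 (SE 0.54, interval -0.01 to 2.33, limma adjusted p = 0.709), and by 1.39 without sensitive replicate 4 (adjusted p = 0.261). Sensitive against control samples gave -0.75 (SE 0.52) and resistant against control samples 0.41 (SE 0.52), the last of which was 0.05 without resistant replicate 1 and 0.79 without resistant replicate 3.
The Il6 promoter is shown because, of the matched members, Il6 and Tgfb1 alone held a match to the NF-kB consensus, which 7.25% of promoters held on either strand; capitals mark the Il6 match, which ends at -35.
Il6, chr5:30012994-30013113, plus strand: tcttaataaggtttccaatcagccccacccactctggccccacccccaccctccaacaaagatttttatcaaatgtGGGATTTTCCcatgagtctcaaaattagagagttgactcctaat
The Tgfb1 match ended at -131.

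Il18 encodes interleukin-18, another caspase-1 substrate, which many epithelial and myeloid cells hold in store. The values of Il18 were 6.30, 6.48, 5.14 and 5.08 on the resistant arrays, 6.47, 6.87, 5.15 and 6.30 on the sensitive arrays, and 5.92, 4.90, 5.75, 6.19 and 5.37 on the control arrays. All groups overlapped widely, and sensitive replicates 1 and 2, low for Tnf, Il1a and Il1b, held 2 of the 3 highest values. The resistant to sensitive difference was -0.44 (SE 0.45) and the sensitive to control difference 0.57 (SE 0.43), neither past the test. The resistant to control difference of 0.12 changed sign when control replicate 2 (-0.06), resistant replicate 1 (-0.06) or resistant replicate 2 (-0.12) was left out.

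Il10 encodes interleukin-10, which shuts off cytokine production in macrophages through STAT3. Log2 intensity of Il10 stood at 8.56, 6.57, 8.10 and 8.08 on the resistant arrays, 2.16, 2.01, 4.03 and 8.18 on the sensitive arrays, and 8.31, 4.86, 2.91, 9.03 and 8.70 on the control arrays. All resistant arrays carried signal, sensitive replicates 1 and 2 were at or near the lower limit, and the control arrays fell into 3 high and 2 low ones. The resistant mean of 7.83 ± 0.87 and the sensitive mean of 4.10 ± 2.87 (SD, n = 4 each) differed by 3.73 (SE 1.44, interval 0.65 to 6.82, limma adjusted p = 0.616), or 13.3-fold, the largest difference among the members. Without sensitive replicate 4 it was 5.09 (34.1-fold, adjusted p = 0.0491), with 1 of the 3 remaining sensitive arrays at the lower limit. With no lower limit the difference over all arrays was 3.75. Sensitive and control samples differed by -2.67 (SE 1.37, adjusted p = 0.447). Resistant and control samples differed by 1.06, by 0.10 without control replicate 3, by 0.59 without control replicate 2, by 1.63 without control replicate 4 and by 2.47 without control replicates 4 and 5, the 2 arrays with endothelial signal. None of these passed the test.

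Il1rn encodes the interleukin-1 receptor antagonist, which occupies the receptor of Il1a and Il1b without signalling. Its log2 intensities were 8.54, 7.33, 7.17 and 6.86 on the resistant arrays, 4.65, 4.88, 6.07 and 10.72 on the sensitive arrays, and 9.21, 6.36, 6.31, 10.31 and 10.31 on the control arrays. The highest value was again on sensitive replicate 4, and the control arrays split as for Il10. Resistant and sensitive samples differed by 0.90 (SE 1.24, limma adjusted p = 0.857), by 2.28 without sensitive replicate 4 (adjusted p = 0.261), by 0.26 without sensitive replicate 1, by 0.33 without sensitive replicate 2 and by 0.54 without resistant replicate 1. Sensitive and control samples differed by -1.92 (SE 1.18, adjusted p = 0.497), by -3.30 without sensitive replicate 4 (adjusted p = 0.0577) and by -1.28 without sensitive replicate 1. The resistant to control difference of -1.02 was -1.57 without control replicate 3 and -0.57 without control replicate 4 or 5, and it turned to 0.18 without both of these.

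Il1rn had 2 further probe sets. One (1451798_at) followed the main one (1425663_at) over the 13 arrays (Pearson r = 0.94) and differed by 1.48 between resistant and sensitive samples and by -1.80 between sensitive and control samples. The other (1423017_a_at) stayed between 2.55 and 4.33 on all arrays and differed by -0.20 and -0.47 in the same comparisons, so the probe sets disagreed on the first sign. Between resistant and control samples this low probe set differed by -0.67 (limma unadjusted p = 0.0356, not called after adjustment). Il1rn has 3 annotated transcription starts, and the transcripts each probe set reads were not examined.

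Tgfb1 encodes TGF-beta 1, which is stored in latent form in the matrix and limits immune cell activity. Tgfb1 read 7.26, 4.30, 6.64 and 6.09 on the resistant arrays, 4.95, 3.50, 5.51 and 5.36 on the sensitive arrays, and 5.56, 5.67, 3.72, 5.30 and 5.36 on the control arrays. Resistant replicates 1, 3 and 4 were the 3 highest of all 13 arrays, and resistant replicate 2 was among the 3 lowest. The differences were 1.24 between resistant and sensitive (SE 0.64, limma adjusted p = 0.727), -0.29 between sensitive and control (SE 0.61) and 0.95 between resistant and control samples (SE 0.61). Leaving out single arrays moved the first between 0.80 (without sensitive replicate 2) and 1.84 (without resistant replicate 2), and the last between 0.56 (without resistant replicate 1) and 1.55 (without resistant replicate 2). The second probe set (1445360_at, the main one being 1420653_at) did not follow the first (r = -0.17) and had the opposite sign in the first 2 comparisons (-0.35 and 0.79). Its sensitive to control difference had a limma unadjusted p of 0.0198 (adjusted p = 0.382). The mean of both probe sets turned the sensitive to control difference to 0.25, and leaving out sensitive replicate 2 turned it to 0.15. Between resistant and sensitive samples the mean of both probe sets gave 0.45, against 1.24 for the main one. No direction is therefore given for Tgfb1 in either of these comparisons.

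Ptgs2 encodes cyclooxygenase-2, the inducible enzyme at the head of prostaglandin synthesis. Its log2 intensities were 11.19, 11.05, 10.44 and 10.93 on the resistant arrays, 9.34, 9.97, 8.41 and 11.06 on the sensitive arrays, and 10.52, 8.78, 8.40, 11.43 and 11.28 on the control arrays. The resistant arrays were the least spread of all member groups (SD 0.33), and control replicates 2 and 3 were as low as the low sensitive arrays. Resistant and sensitive samples differed by 1.21 (SE 0.68, limma adjusted p = 0.757), by 1.66 without sensitive replicate 4 (adjusted p = 0.252) and by 0.78 without sensitive replicate 3. The resistant to control difference of 0.82 (SE 0.65) was 0.40 without control replicate 3, 0.49 without control replicate 2 and 1.67 without control replicates 4 and 5 (adjusted p = 1). The sensitive to control difference of -0.39 turned to 0.46 without these 2 control arrays and to 0.04 without sensitive replicate 3. The second probe set (1417263_at) followed the main one (1417262_at) with r = 0.94 and had the same sign in all 3 comparisons (1.32, -0.79 and 0.53).

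Nos2 encodes inducible nitric oxide synthase, a mark of classically activated mouse macrophages. Log2 values of Nos2 were 3.27, 2.67, 2.42 and 3.16 on the resistant arrays, 4.03, 4.10, 2.47 and 2.84 on the sensitive arrays, and 3.79, 3.09, 2.95, 2.82 and 3.05 on the control arrays. All 13 values lay between 2.42 and 4.10, near the lower limit, with no order between groups. The differences were -0.48 between resistant and sensitive (SE 0.37), 0.22 between sensitive and control (SE 0.35) and -0.26 between resistant and control samples (SE 0.35), none past the test. The sensitive to control difference was -0.002 without sensitive replicate 1 and -0.03 without sensitive replicate 2. At this signal a difference in Nos2 was not detectable, which does not show that it is absent.

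**Figure D2:**
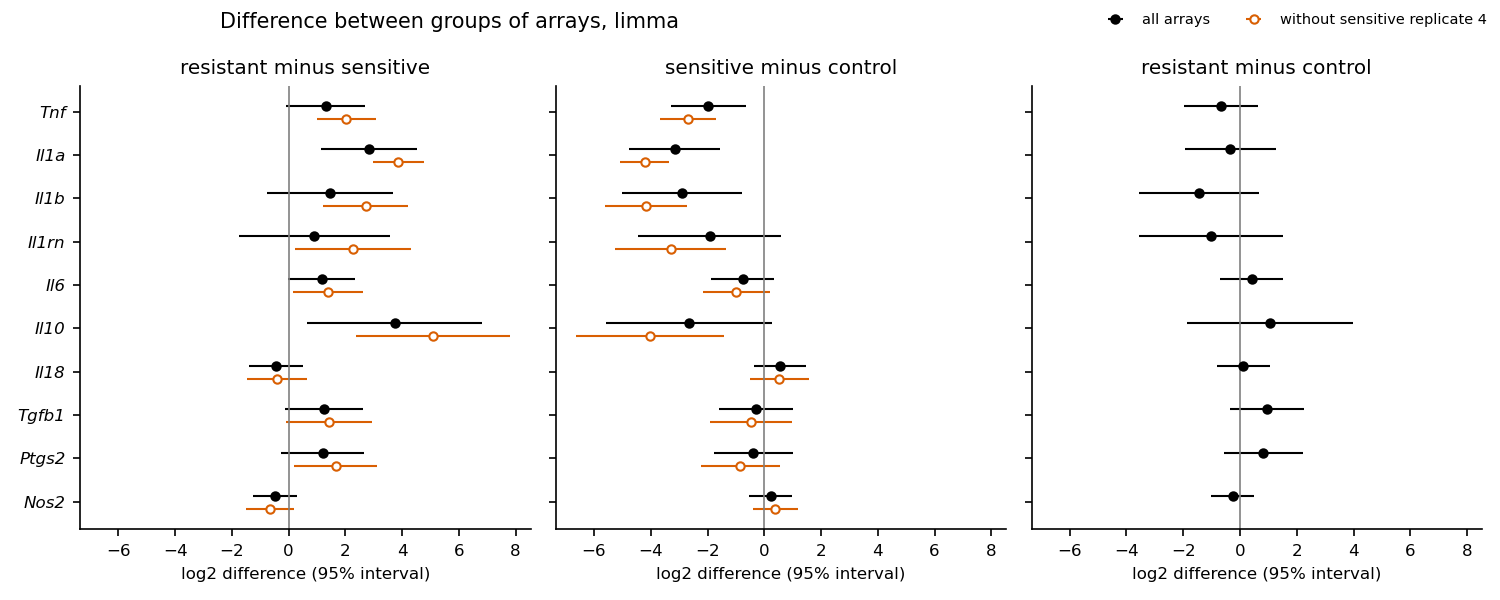
Log2 difference between groups (horizontal axis) with its 95% interval from limma for the 10 genes in the 3 comparisons; filled black points use all arrays and open orange points, given for the 2 comparisons with sensitive samples, leave out sensitive replicate 4. Leaving that array out moved Il1a between resistant and sensitive samples to 3.87, against 2.82 with all arrays, and left Il18 close to its earlier value.

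The members formed overlapping sets by their pattern over the 13 arrays, given here as a description since all points share the same arrays and marker split. Tnf, Il1a and Il1b went together (r = 0.92 for Tnf and Il1a, 0.86 for Il1a and Il1b, 0.85 for Tnf and Il1b). Il10 was closest to Il1rn (r = 0.86) and Ptgs2 (0.81), and Il6 to Ptgs2 (0.76). The Il10, Il1rn and Ptgs2 values had in common that control replicates 1, 4 and 5 were high and control replicates 2 and 3 low, while Il1a was at 10.07 to 10.98 on all 5. On control replicates 2 and 3 the macrophage and monocyte median was 8.49 and 7.99, the 2 lowest of the control arrays. Il18 and Nos2 correlated with each other at r = 0.51 and with the other members at -0.45 to 0.38.

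**Figure D3:**
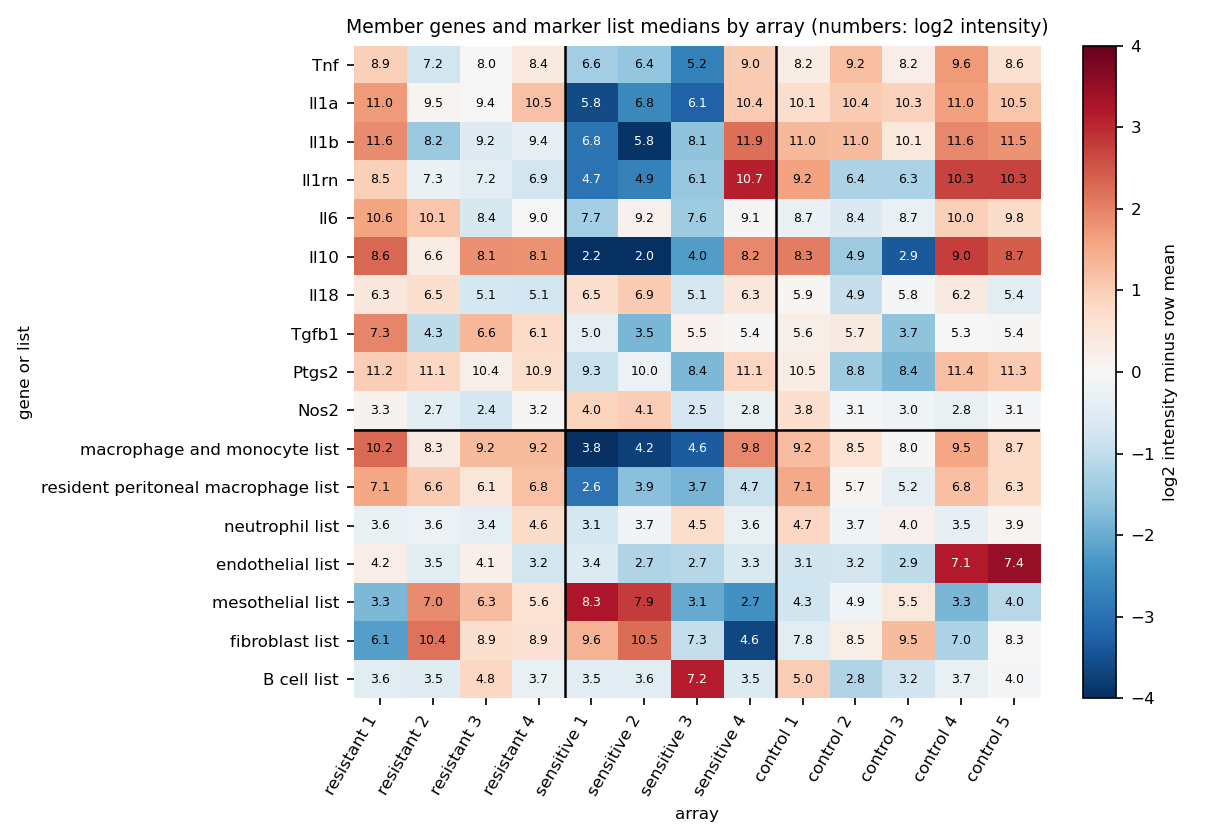
Log2 intensity of the 10 genes and median log2 intensity of 7 marker lists (rows) on each array (columns); numbers are log2 intensities and colours are the value minus its row mean. The blue block of sensitive replicates 1 to 3 runs through Tnf, Il1a, Il1b, Il1rn and Il10 and through the macrophage and monocyte list, and the red endothelial cells are control replicates 4 and 5.

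The macrophage list separated the same arrays as Il1a and Tnf, but not as Il6 or Il18. The 3 sensitive arrays with list medians of 3.82 to 4.60 were those with the lowest Il1a and Tnf, and the array with the highest Il1b and Il1rn, sensitive replicate 4, had the second highest list median (9.84). The order within the arrays of high median was looser: resistant replicates 2 to 4 had list medians of 8.29, 9.20 and 9.19 and Il1b of 8.22, 9.20 and 9.36, while control replicate 3, at 7.99, had Il1b at 10.14. The 7 resident peritoneal macrophage genes were low on sensitive replicate 4 too: their medians were 6.07 to 7.12 on the resistant arrays, 2.63 to 4.70 on the sensitive arrays, replicate 4 included, and 5.19 to 7.11 on the control arrays. Medians of 10 neutrophil genes with a probe set, 3.12 to 4.66 over all arrays, did not separate the groups.

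**Figure D4:**
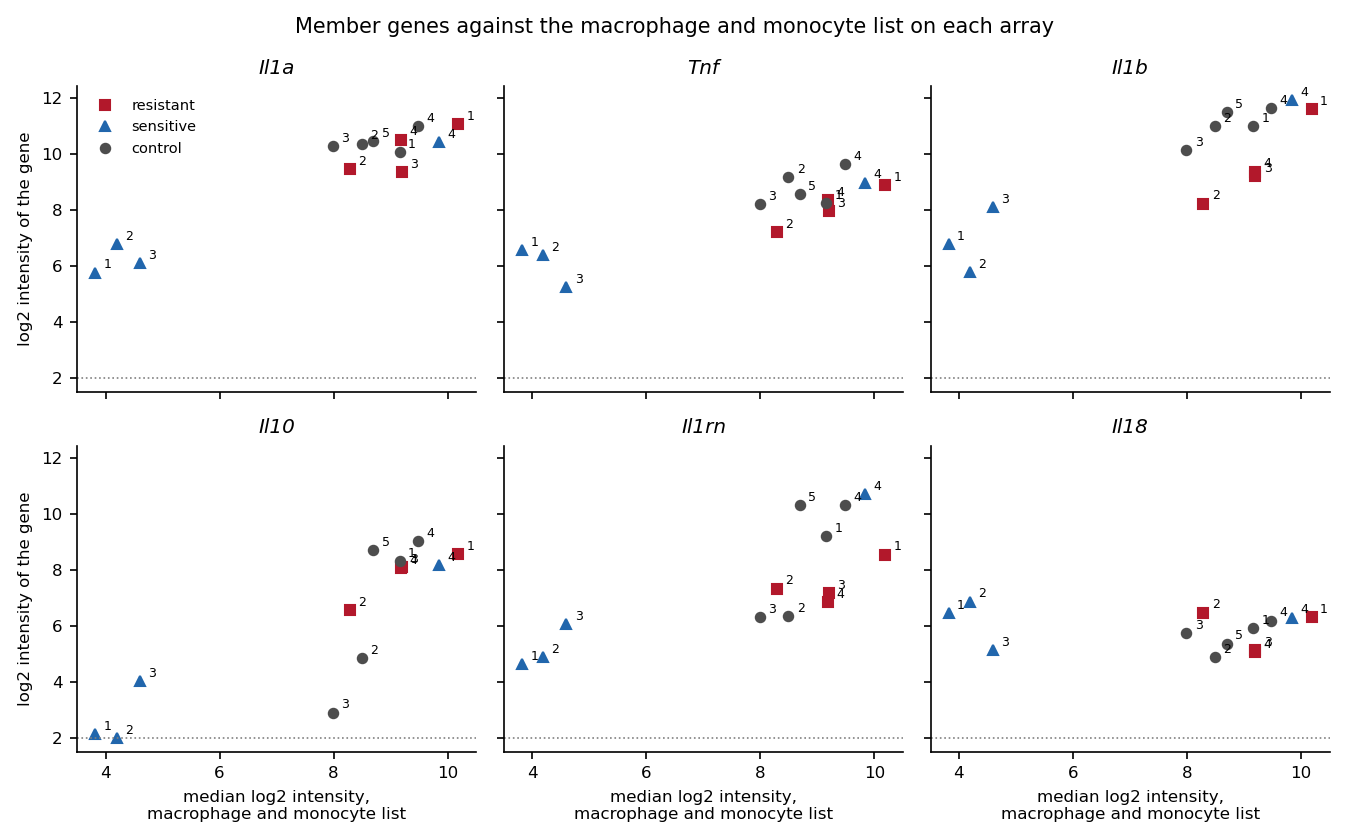
Log2 intensity of 6 genes (vertical axes) against the median log2 intensity of the 15 macrophage and monocyte genes (horizontal axes) on each array; colours and shapes give the group and numbers the replicate. Sensitive replicates 1 to 3 form the left group in every panel, Il10 spans 2.91 to 9.03 among control arrays with list medians of 7.99 to 9.48, and Il18 shows no step.

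The genes nearest to each member over the 13 arrays are given again as a description. Il1a was closest to the cystine transporter Slc7a11 (r = 0.98), the myeloid lectin Clec4d (0.98) and the scavenger receptor Msr1 (0.98), the last of which is on the macrophage list. Tnf was closest to Parvb (0.97), Rab32 (0.96) and Gpr84 (0.96), and Il1b to the TNF receptor gene Tnfrsf1b (0.96), Lifr (0.95) and Vasp (0.95). Il10 was closest to the collagenase Mmp13 (0.96), Rgl1 (0.96) and the mannose receptor Mrc1 (0.95). Il1rn was closest to Rnf180 (0.95), Parp14 (0.93) and Stx6 (0.93), and Ptgs2 to the RNA sensor Ifih1 (0.93), Flrt3 (0.91) and Zfp105 (0.91). For Il6 they were Plcb1 (0.87), Pla2g4a (0.87), a phospholipase that releases arachidonic acid, and Pip4p2 (0.86). For Tgfb1 they were Vcpkmt (0.89), Nrm (0.89) and Zc3h12a (0.88), for Il18 Tbc1d19 (0.86), Zc2hc1a (0.85) and Frmd4b (0.82), and for Nos2 Tmem212 (0.91), Olig1 (0.89) and Armc12 (0.87).

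The receptors of these ligands were read from a list of their own. Of 16 receptor genes tested, 0 were called, with 1 higher and 1 lower at an unadjusted p under 0.05 between resistant and sensitive samples (median log2 difference 0.25) and 3 lower between sensitive and control samples (median -0.43). Of all genes, 4.54% were higher and 2.53% lower at that level between resistant and sensitive samples, and 6.57% lower and 5.32% higher between sensitive and control samples, which is the background for this and the following lists. The one higher was Il10ra, the ligand-binding chain of the interleukin-10 receptor, at 5.64 ± 1.07 in resistant and 3.90 ± 1.97 in sensitive samples (SD, n = 4 each; difference 1.74, SE 0.79, limma adjusted p = 0.702). The one lower was Il18rap, the accessory chain of the interleukin-18 receptor (difference -0.87, SE 0.38). Tnfrsf1b, the second TNF receptor, averaged 8.07 ± 1.15 in sensitive and 9.77 ± 0.46 in control samples (difference -1.69, SE 0.49, adjusted p = 0.256, and -2.25 with adjusted p = 0.00494 without sensitive replicate 4). Without that array 2 receptors were called higher in resistant than in sensitive samples, Tgfbr1 (difference 1.21, limma adjusted p = 0.0485) and Il10rb (1.66, adjusted p = 0.0467). Of all genes, 2.78% were called in either direction there, 380 higher and 48 lower. Also without that array, 3 receptors were called lower in sensitive than in control samples, Tnfrsf1b, Il10ra (-2.58, limma adjusted p = 0.0409) and Il10rb (-1.63, adjusted p = 0.0311). In that comparison 4.52% of all genes were called in either direction, 542 lower and 154 higher. Il10rb, the second chain of the interleukin-10 receptor, was singled out after its values were seen. Tgfbr1, the signalling receptor of TGF-beta, had every resistant array above every control array (8.30 ± 0.27 and 7.62 ± 0.20, difference 0.68, SE 0.38, adjusted p = 1). Of all genes, 1.31% did. Among the genes of smallest p in the lists below, Rel and Smad4 did so too.

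Among genes that cut, release or activate the ligands, 0 were called. All 12 tested had a positive resistant to sensitive difference (median 0.80), as did 6481 of the 15384 genes, 2 of them at an unadjusted p under 0.05, and 11 of 12 a negative sensitive to control difference (median -0.81, 2 at that level). Casp4, the mouse caspase-11 that senses bacterial lipopolysaccharide in the cytosol, did not overlap between groups even with sensitive replicate 4, at 7.88 ± 0.34 in resistant and 6.76 ± 0.50 in sensitive samples (difference 1.12, SE 0.30, limma adjusted p = 0.433). All sensitive arrays also lay below the control arrays, which averaged 7.94 ± 0.21 (difference -1.18, SE 0.29, adjusted p = 0.207, and adjusted p = 0.0289 without sensitive replicate 4). Ltbp1, which binds latent TGF-beta, had every resistant array above every sensitive array (5.11 ± 0.60 and 3.45 ± 0.75; difference 1.66, SE 0.44, adjusted p = 0.433). Of the 15384 genes, 150 had every resistant array above every sensitive array, and 245 had every sensitive array below every control array. Casp4 and Ltbp1 are named here for their small p-values within the list. Pycard, the inflammasome adaptor, differed by 1.60 (SE 0.77) between resistant and sensitive and by -2.34 (SE 0.73) between sensitive and control samples, without a call in either. Without sensitive replicate 4, Adam17 was called lower in sensitive than in control samples (-1.795, limma adjusted p = 0.0195), as was Casp4. Of the 15384 genes, 542 were called lower there.

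Of 14 eicosanoid enzymes and receptors tested, 5 were higher in resistant than in sensitive samples at an unadjusted p under 0.05, and 4 were lower and 1 higher in sensitive than in control samples, with 0 called. Alox5ap, which presents arachidonic acid for leukotriene synthesis, averaged 9.37 ± 0.67 in resistant and 6.59 ± 1.97 in sensitive samples (difference 2.78, SE 0.77, limma adjusted p = 0.448, and 3.67 with adjusted p = 0.00245 without sensitive replicate 4). Thromboxane synthase, Tbxas1, differed by 2.19 (SE 0.69) and the prostaglandin E synthase Ptges, which takes the product of Ptgs2, by 1.58 (SE 0.60) in the same comparison. Against control samples the sensitive samples differed by -2.88 for Alox5ap, -2.36 for Tbxas1 and -1.63 for Ptges. Without sensitive replicate 4, Alox5ap and Tbxas1 were called higher in resistant than in sensitive samples, where 380 of the 15384 genes were. These 2 and Ptges were then called lower in sensitive than in control samples, where 542 genes were. Lta4h, a leukotriene-forming enzyme, was the only gene of the 7 pathway lists with an unadjusted p under 0.05 between resistant and control samples (6.92 ± 0.38 and 6.19 ± 0.39; difference 0.73, SE 0.29, adjusted p = 1).

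Nos2 competes for arginine with the arginases, and Arg1 had the largest differences among the pathway genes named here. Arg1, a mark of alternatively activated mouse macrophages, averaged 11.73 ± 0.65 in resistant, 7.74 ± 2.43 in sensitive (SD, n = 4 each) and 11.76 ± 0.43 in control samples (SD, n = 5). Its log2 difference was 3.99 between resistant and sensitive (SE 0.86, limma adjusted p = 0.308) and -4.02 between sensitive and control samples (SE 0.82, adjusted p = 0.180). Without sensitive replicate 4 these were 5.17 (adjusted p = 4.8e-05) and -5.20 (adjusted p = 2.46e-05). The arginine transporter Slc7a2 differed by 3.02 and -3.25, and Arg2 by 1.76 and -1.94, in the same 2 comparisons. Of the 10 genes of the list, Nos2 included, 4 were higher between resistant and sensitive samples at an unadjusted p under 0.05 and 3 lower between sensitive and control samples. Without sensitive replicate 4, Arg1, Slc7a2 and Arg2 were called higher in the first and lower in the second comparison. Of the 15384 genes, 380 were called higher in the first and 542 lower in the second.

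Of 17 Toll-like receptor and NF-kB genes tested, 16 had a positive resistant to sensitive difference (median 0.51, 5 at an unadjusted p under 0.05) and 16 a negative sensitive to control difference (median -0.59, 4 at that level), with 0 called. The lipopolysaccharide receptor Cd14 averaged 11.77 ± 0.36 in resistant, 9.74 ± 1.79 in sensitive and 12.01 ± 0.37 in control samples. Its resistant to sensitive difference was 2.03 (SE 0.64, limma adjusted p = 0.534), and that of Tlr2, the receptor of bacterial lipoproteins, 2.22 (SE 0.80). Of all genes, 6481 of 15384 had a positive difference in the first comparison and 6405 a negative one in the second. Without sensitive replicate 4, 3 genes of the list were called higher in resistant than in sensitive samples (Cd14, Tlr2 and Ly96). Of all genes, 2.78% were called in either direction there, 380 higher and 48 lower. Also without that array, 4 were called lower in sensitive than in control samples (the same 3 and Tlr4, named after its values were seen). In that comparison 4.52% of all genes were called in either direction, 542 lower and 154 higher.

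Of 10 STAT, SMAD and mRNA decay genes, which relay or limit the cytokine signal, 9 had a positive sensitive to control difference (median 0.32), as did 8979 of the 15384 genes, and 0 were called. The resistant to control difference was likewise positive for 9 (median 0.30), as for 8348 of all genes, and the resistant to sensitive median was 0.06. Zfp36l1, which promotes decay of cytokine transcripts, averaged 10.04 ± 0.66 in sensitive and 9.12 ± 0.26 in control samples (difference 0.92, SE 0.32, limma adjusted p = 0.312), and Smad3, which carries the TGF-beta signal, 7.63 ± 0.57 and 6.73 ± 0.13 (difference 0.90, SE 0.32). Both were called higher in sensitive than in control samples without sensitive replicate 4 (limma adjusted p = 0.0236 and 0.0358). Of the 15384 genes, 154 were called higher there. Socs3, the feedback inhibitor of interleukin-6 signalling, differed by 1.34 (SE 0.56) between resistant and sensitive and by -1.40 (SE 0.53) between sensitive and control samples. Among 23 other cytokine genes tested, 2 were higher in resistant than in sensitive samples and 2 lower in sensitive than in control samples at an unadjusted p under 0.05, with medians of 0.05 and -0.16. One was Osm, an interleukin-6 family ligand of myeloid cells, at 8.78 ± 0.74 in resistant and 6.04 ± 2.21 in sensitive samples (difference 2.74, SE 0.86, adjusted p = 0.534, and 3.84 with adjusted p = 0.00134 without sensitive replicate 4). Tnfsf9, which encodes the ligand of the co-stimulatory receptor 4-1BB, differed by 2.62 (SE 1.14) and by -2.65 (SE 1.08) between sensitive and control samples.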

How the data were processed

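Total RNA of CD31-sorted cells was hybridised to mouse arrays by the authors (13 samples). The deposited table holds 1 value per probe set, read here as log2 intensity from its range of 0.46 to 13.00; the sources used here state neither the log base nor the normalization. The submitters' processing notes name MAS5 and the labels an Affymetrix protocol, whereas the study's methods describe Illumina bead chips; the probe set names are those of Affymetrix. Of 45101 probe sets, 34958 carried 1 gene symbol by the platform annotation. Values were quantile normalized, set to a lower limit at the 30th percentile of all values (2.01), and 15384 genes above it on at least 4 arrays were tested. All 3 groups entered 1 fit with limma 3.58.1 in R 4.3.3 (lmFit, eBayes with trend, two-sided, Benjamini-Hochberg over all genes, called at adjusted p under 0.05), in place of the methods' random variance t-test. The fit was tested on simulated data. Arrays carry no read depth, so their number sets the precision. Alternatives were the deposited scale, median centring, no limit, no filter, the mean of probe sets, no trend and 2 groups alone. Others were an ordinary t-test without the random variance model, a replicate block and arrays left out. Every probe set in its own row was added after seeing the data. All 10 members are named, with the 3 genes closest to each by Pearson r and, of each of 7 pathway lists, at most 3 genes of smallest p in a comparison. The members and lists were chosen with earlier results of these data known.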

Additional observations from a re-analysis of the deposited data

Results flagged for a closer look

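Of the 30 sets of values (10 genes in 3 groups), 2 had 1 array standing far from the rest of its group, and chance alone gives about 1 in 20. Tgfb1 on control replicate 3 was at 3.72, the lowest of its group, whose other arrays lay at 5.30 to 5.67. Nos2 on control replicate 1 was at 3.79, the highest of its group, whose other arrays lay at 2.82 to 3.09, close to the lower limit. Sensitive replicate 4 was not picked out this way for any gene.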

How the results depend on the processing

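Of 720 member values under the alternatives, 690 kept their sign and their side of the threshold, 6 became calls (all without sensitive replicate 4) and 24 changed sign. Many of the 720 could not change sign. Leaving out an array of the group outside a comparison keeps its difference the same, as do no filter, no trend, the t-test and 2 groups alone. With no member called in the main fit, the side of the threshold could change only by a new call. The count of 690 is thus no measure of stability. Leaving out 1 array at a time gave 0 to 428 genes called between resistant and sensitive samples, 0 to 696 between sensitive and control samples and 0 in each fit between resistant and control samples. Sensitive replicate 4 gave both high counts; without control replicate 1, 4 genes were called between resistant and sensitive samples (Alox15, Ero1a, Plxdc2 and Prg4), and without control replicate 3, 1 between sensitive and control samples (D130051D11Rik). The 2 groups alone gave 2 calls between resistant and sensitive samples (Alox15 and Cd5l). Without sensitive replicates 1, 2 and 3, 2 genes were called between resistant and sensitive samples (Zfp386 and Zfp995) and 4 between sensitive and control samples (these 2, Col14a1 and Gcnt2). These genes were singled out after their values were seen. That setting leaves 1 sensitive array, assumed to vary like the other groups, and changed the resistant to sensitive difference to -0.35 for Il10, -0.32 for Il1a, -2.33 for Il1b, -3.24 for Il1rn, 0.037 for Nos2, -0.16 for Ptgs2 and -0.87 for Tnf. It changed the sensitive to control difference to 1.41 for Il10, 0.87 for Il1b, 2.22 for Il1rn, -0.30 for Nos2, 0.98 for Ptgs2, 0.24 for Tgfb1 and 0.21 for Tnf. In that comparison Il1a, Il6 and Il18 kept their sign, at -0.022, -0.070 and 0.67, against -3.16, -0.75 and 0.57 with all arrays. Without control replicates 4 and 5, the sensitive to control difference of Ptgs2 was 0.46 and the resistant to control difference of Il1rn 0.18. The mean of probe sets gave 0.25 for Tgfb1 between sensitive and control samples. Leaving out single arrays, the sensitive to control difference spanned -0.027 to 0.52 for Nos2, -0.84 to 0.042 for Ptgs2 and -0.64 to 0.15 for Tgfb1, and the resistant to control difference of Il18 -0.12 to 0.35. The cause of these shifts was not tested.

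Correlations of same-numbered deviations ran between -0.43 and 0.53, and arrays of different numbers were not compared in this way. Whether arrays of the same number share an animal or a batch was not tested. With the replicate block 0 genes were called in each comparison and no member's call changed. An ordinary t-test, without the random variance model of the methods, called 0 genes after adjustment in each comparison. At an unadjusted p under 0.05 it gave 529 genes between resistant and sensitive and 1371 between sensitive and control samples. Between resistant and control samples it gave 1043. With limma these counts were 1087, 1829 and 388. Median centring moved the median difference of all genes to 0.04 between resistant and sensitive samples, against -0.07 with quantile normalization, and to -0.05 between sensitive and control samples, against 0.09. Signal near the lower limit bounds what can be said of Nos2 and of Il10 on sensitive replicates 1 and 2.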
